A study of Mus musculus with 3 samples.

Results

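The metallothioneins and the genes that move zinc in and out of cells were followed across 3 samples of cultured mouse CD8+ T cells. The 6 genes described are the metallothionein genes Mt1 and Mt2, the zinc-sensing transcription factor gene Mtf1, the zinc exporter gene Slc30a1 and the zinc importer genes Slc39a6 and Slc39a10. They were picked by symbol from the 17121 genes of the deposited table, with the values of that table already known, so their differences are given as descriptions. Each group was 1 sample of wild-type CD8+ T cells, the cytotoxic T cells, isolated from spleen and lymph nodes and cultured for 3 days. Mice of 6 weeks gave the young TCR sample, which was stimulated with anti-CD3 and anti-CD28 antibodies (1 µg/ml) that engage the T cell receptor and a costimulatory receptor. Cells of equally young mice gave the young TRM sample, which had these antibodies plus the cytokines IL-15 (20 ng/ml) and TGF-beta (5 ng/ml), a mixture meant to model tissue-resident memory T cells (TRM) in a dish. The aged TRM sample had this mixture too and came from mice of 18 months. The labels used here do not state how many mice gave each sample, nor their sex or strain. Cells from aged mice without the cytokines were not analysed here.

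Metallothioneins are very small, cysteine-rich proteins that bind zinc and copper, buffer the free zinc of the cytosol and can scavenge oxidants. Their genes are switched on by MTF1, a zinc-finger protein that binds DNA at metal response elements when free zinc rises. Exporters of the SLC30 (ZnT) family lower cytosolic zinc and importers of the SLC39 (ZIP) family raise it. In T cells, zinc entering on receptor engagement takes part in signalling.

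The promoters of Mt1, Mt2 and Mt3, the metallothionein genes with appreciable reads here, are shown with that of Slc30a1, another known target of MTF1, so that their levels can be read beside the metal response elements each holds. Each line holds the 250 bases before the transcript start of the RefSeq promoter table in GRCm38.p6, read 5′ to 3′ along the gene, with capitals marking matches to the core of the metal response element (TGCACNC or TGCGCNC, on either strand, overlapping matches counted separately). The stretches lie on the plus strand at chr8:94178839-94179088, chr8:94172368-94172617, chr8:94152357-94152606 and chr1:191906531-191906780.
Mt1: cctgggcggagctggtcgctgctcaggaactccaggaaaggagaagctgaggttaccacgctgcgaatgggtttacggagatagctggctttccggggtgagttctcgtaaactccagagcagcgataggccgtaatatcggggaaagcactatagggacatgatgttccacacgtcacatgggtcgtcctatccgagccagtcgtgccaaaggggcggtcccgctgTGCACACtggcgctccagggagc
Mt2: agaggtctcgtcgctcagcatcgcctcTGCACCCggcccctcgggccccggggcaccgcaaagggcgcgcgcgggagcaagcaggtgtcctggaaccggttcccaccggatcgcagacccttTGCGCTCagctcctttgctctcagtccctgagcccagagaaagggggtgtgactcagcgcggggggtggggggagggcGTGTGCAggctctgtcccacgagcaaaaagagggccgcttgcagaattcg
Mt3: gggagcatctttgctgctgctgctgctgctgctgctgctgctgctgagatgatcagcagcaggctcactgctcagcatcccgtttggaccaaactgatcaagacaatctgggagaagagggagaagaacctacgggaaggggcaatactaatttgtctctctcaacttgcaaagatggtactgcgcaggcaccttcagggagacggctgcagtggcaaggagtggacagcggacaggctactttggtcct
Slc30a1: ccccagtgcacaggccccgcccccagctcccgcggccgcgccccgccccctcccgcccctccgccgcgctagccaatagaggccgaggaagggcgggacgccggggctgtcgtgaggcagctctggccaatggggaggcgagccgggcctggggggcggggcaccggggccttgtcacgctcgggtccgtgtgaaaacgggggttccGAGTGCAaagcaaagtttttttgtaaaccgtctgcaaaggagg

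The Mt2 stretch held 3 matches, the Mt1 and Slc30a1 stretches 1 each, and the Mt3 stretch 0. Stretches of the same length before Mtf1 and before both annotated starts of Slc39a10 also held 0, and that before the exporter gene Slc30a4 held 2. Of 32851 such stretches in the RefSeq promoter table, 21.4% held at least 1 match and 1.26% at least 3. Further matches lay in the first 50 bases after the start, with 2 for Mt1 and 1 each for Mt2, Mt3 and Slc30a1. GENCODE M21 places several starts of Mt1 and Mt2 in their first exons, Mt1 from 94179082 to 94179241 and Mt2 from 94172664 to 94172860. The 159 bases between these starts of Mt1 held 4 matches, which take in the 2 just counted after its RefSeq start, and the 196 bases of Mt2 held 3. The Mt2 match at bases 5 to 11 after its RefSeq start (94172618) lies before its first GENCODE start and is not among these 3. Bases just after the RefSeq starts of Mt2 and of Slc39a10 at 46925776 were not found in GENCODE transcripts of those genes. The antioxidant response element core TGACNNNGC, searched the same way, had 1 match before Mt2 and 1 before Slc30a1, and occurred in 10.2% of all stretches. The STAT motif TTCNNNGAA (7.02% of all stretches) and the SMAD motif CAGACA (17.1%) had no match before Mt1, Mt2, Mt3 or Slc30a1. For Mt1 and Slc30a1 the RefSeq gene begins earlier than the start used here, at 94178883 and 191906697, so part of each printed stretch lies within the annotated gene. A match is a string of letters and not a measured binding site.

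The table held 39915663 reads for young TCR, 36021887 for young TRM and 40385477 for aged TRM. Each sample had 2 numbered columns of reads, whose meaning the labels do not give. They were summed for each level and are given side by side as the only measure of repeatability. On this reading a group is 1 sample, so variation between mice or between cultures could not be estimated and no p-value is given. Levels are in CPM, counts of reads per gene set against the size of the library, after scaling by the trimmed-mean method. The median gene of at least 1 CPM differed between the columns of a sample by 1.05-fold in each group. The words rose and fell are kept for genes that were called, which needed a difference of at least 2-fold in CPM plus a pseudocount of 1 and a 95% counting interval of the ratio that excluded 1. Intervals are Clopper-Pearson intervals that cover counting error only. Cd3d, Cd3e, Cd3g, Cd8a and Cd8b1, which define CD8+ T cells, had at least 272 CPM in every group. Cd8a was the 1 of these 5 called, and rose from 747 to 1822 CPM with the cytokines, with 1632 CPM in aged TRM. Among all genes tested, 4.18% rose with the cytokines.

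Both metallothionein genes were far lower with IL-15 and TGF-beta in young cells, and in aged cells given the same cytokines they stood at or above the level of young cells without them. Mt1 (gene ID 17748, chromosome 8, 94178883 to 94180327 of GRCm38.p6) had 50.5 and 49.8 CPM in the columns of young TCR, 10.9 and 8.92 CPM in those of young TRM and 54.2 and 57.6 CPM in those of aged TRM. The young TRM columns were the low ones and overlapped neither of the other groups. Taking columns together, Mt1 fell from 50.1 to 9.82 CPM between young TCR and young TRM, which was 5.11-fold lower (interval 4.55 to 5.74). It rose to 55.9 CPM in aged TRM, 5.69-fold above young TRM (5.08 to 6.39).

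Mt2 (gene ID 17750, chromosome 8, 94172618 to 94173567), whose product is a close relative of metallothionein 1, had the same order of groups. Its columns had 29.7 and 28.5 CPM in young TCR, 4.83 and 5.44 CPM in young TRM and 37.9 and 38.1 CPM in aged TRM. Again the young TRM columns were low and the groups did not overlap. Mt2 fell from 29.1 to 5.17 CPM, 5.63-fold lower (4.81 to 6.62), and rose to 38.0 CPM with age, 7.36-fold higher (6.31 to 8.63). The fall and the rise are both measured against the single young TRM sample, so they are not independent of each other.

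**Figure D1:**
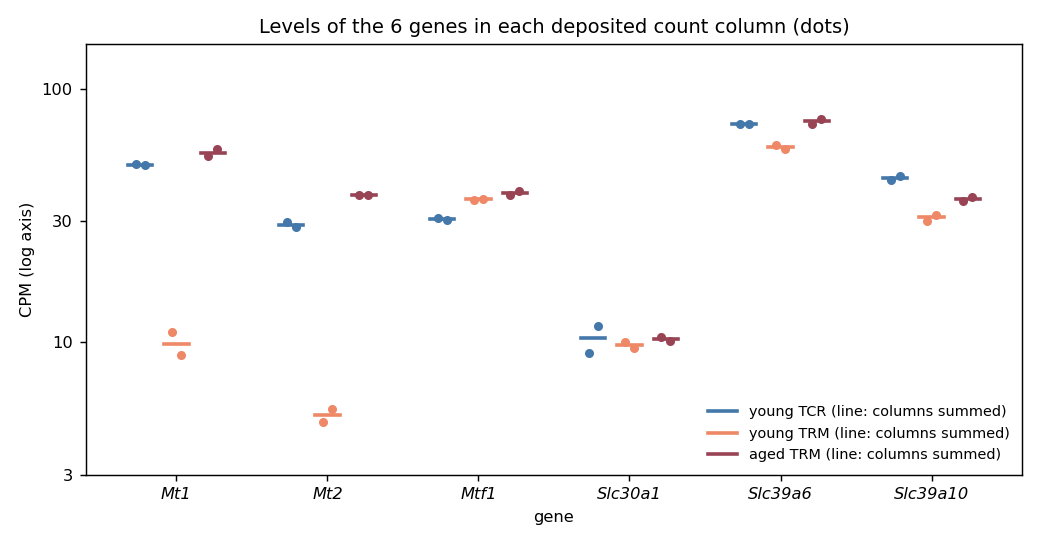
CPM on a log axis for each of the 6 genes in young TCR, young TRM and aged TRM; dots are the 2 deposited count columns of a sample and the short line is the level with columns summed. Mt1 and Mt2 drop to 9.82 and 5.17 CPM in young TRM, while the other 4 genes lie within 1.5-fold across the groups.

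Set directly against young TCR, aged TRM differed little in these genes. Mt1 was 1.11-fold higher in aged TRM (1.05 to 1.18) and Mt2 1.31-fold higher (1.21 to 1.41), where both age and cytokines differ between the samples. Together Mt1 and Mt2 had 79.2 CPM in young TCR, 15.0 CPM in young TRM and 93.9 CPM in aged TRM. The balance between the pair moved less than their sum. The ratio of Mt1 to Mt2 in the authors' TPM, a level per transcript length, was 1.76 in young TCR, 1.98 in young TRM and 1.51 in aged TRM. The columns of young TRM were wide apart on this ratio (2.31 and 1.69), and their range took in the young TCR value but not that of aged TRM.

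Of the 6 genes 2 fell with the cytokines, where 3.6% of the 11588 genes tested fell and 4.18% rose. With age 2 of the 6 rose, where 2.25% of 11575 rose and 1.15% fell. Since the genes were chosen with these ratios known, the counts describe the choice. Mt1 and Mt2 passed 2-fold in all 4 pairings of columns in both comparisons, and none of the other 4 genes did so in any pairing. Transcripts of Mt1 and Mt2 are short. Among the 139 other tested genes with at least as much TPM per CPM as Mt2 in young TCR, a mark of short transcripts, the median log2 ratio with the cytokines was -0.07, with 3 risen and 2 fallen, and among 141 with age it was -0.02, with 2 risen and 1 fallen.

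Mt3, the third gene of the cluster and best known from the brain, was the other metallothionein with appreciable reads. It had 75 and 91 reads in the columns of young TCR, 0 and 1 in young TRM and 9 and 9 in aged TRM. Mt3 fell from 4.09 to 0.0284 CPM with the cytokines (a log2 ratio of -2.31; 144-fold lower with a counting interval of 25.5 to 5732, since young TRM had 1 read). The call ended with a pseudocount of 5 (-0.85). With age Mt3 reached 0.443 CPM, too low to be tested in that comparison, and lay 9.25-fold under young TCR (5.67 to 16). Mt4, a metallothionein of stratified epithelium, had 1 read in young TCR and none in the TRM samples, at or below the limit of 3 reads that a count of 0 allows.

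**Figure D2:**
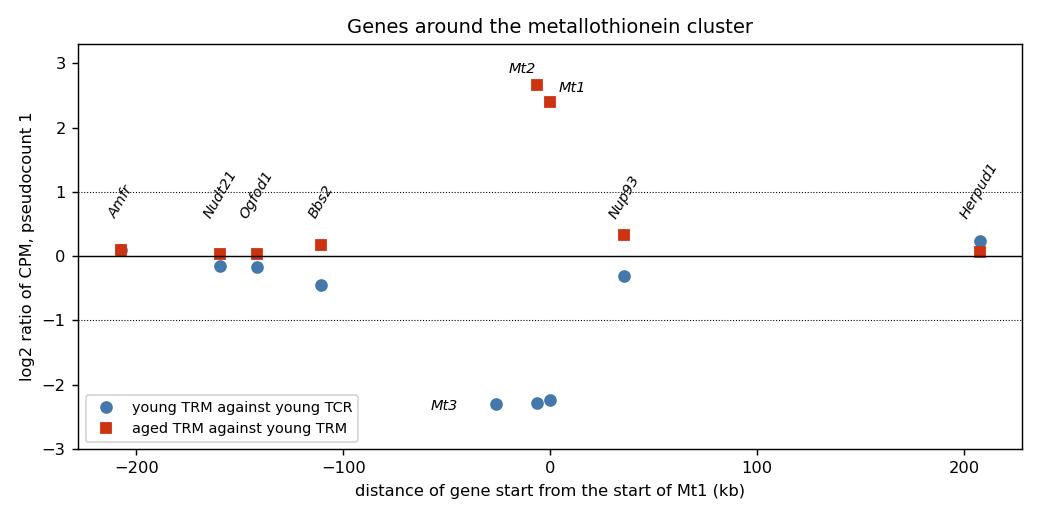
Log2 ratio of CPM (pseudocount 1) for tested protein-coding genes within 250 kb of Mt1, plotted against the distance of each gene's start from that of Mt1, for both comparisons; dotted lines mark 2-fold. With the cytokines Mt1, Mt2 and Mt3 lie between -2.31 and -2.24 and the 6 other tested genes between -0.45 and 0.23. With age Mt1 and Mt2 lie at 2.39 and 2.66 and the 6 others between 0.03 and 0.32.

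The metallothionein genes lie side by side on chromosome 8, so their neighbours were read as well. Of 8 other protein-coding genes within 250 kb of Mt1 in the RefSeq annotation, 6 were tested and 0 were called in either comparison. Over all genes tested 3.6% fell and 4.18% rose with the cytokines, and 2.25% rose and 1.15% fell with age. A count of 0 among 6 is near these shares. The log2 ratios of the 6 neighbours ran from -0.45 to 0.23 with the cytokines and from 0.03 to 0.32 with age. Nup93, a nuclear pore gene and the nearest of these on one side, had 91.5, 73.9 and 92.6 CPM in young TCR, young TRM and aged TRM. Bbs2, a ciliary gene on the other side, had 6.59, 4.54 and 5.24 CPM.

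Mtf1 (gene ID 17764, chromosome 4, 124802549 to 124849800), which encodes the factor that drives metallothionein transcription, was not called in either comparison. It had 30.8 and 30.3 CPM in young TCR, 36.3 and 36.8 CPM in young TRM and 37.9 and 39.6 CPM in aged TRM. The columns did not overlap between groups, and young TCR was the lowest, but the differences were small. Mtf1 was 1.20-fold higher with the cytokines (1.11 to 1.30) and 1.06-fold higher with age (0.984 to 1.14).

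Slc30a1 (gene ID 22782, chromosome 1, 191906697 to 191913248) encodes ZnT1, the exporter of the plasma membrane, and is like the metallothioneins a known target of MTF1. Its columns had 9.10 and 11.6 CPM in young TCR, 9.98 and 9.49 CPM in young TRM and 10.5 and 10.1 CPM in aged TRM. All other columns lay within the range of the young TCR columns, which were 1.28-fold apart. Slc30a1 differed by 0.937-fold with the cytokines (0.810 to 1.08) and by 1.06-fold with age (0.916 to 1.23). A difference of the size seen for Mt1 or Mt2 lay outside these counting intervals in both comparisons.

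The importer genes Slc39a6 and Slc39a10 were somewhat lower in young TRM, within the 2-fold limit. Slc39a6 (gene ID 106957, chromosome 18, 24579881 to 24603817) encodes ZIP6, an importer linked to zinc entry on T cell activation. It had 72.5 CPM in both columns of young TCR, 60.1 and 58.0 CPM in young TRM and 72.3 and 76.2 CPM in aged TRM. The young TRM columns lay below all others, while those of young TCR lay within the range of aged TRM. Slc39a6 was 1.23-fold lower with the cytokines (1.16 to 1.30) and 1.26-fold higher with age (1.19 to 1.33), and was not called.

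Slc39a10 (gene ID 227059, chromosome 1, 46807544 to 46925776) encodes ZIP10, the closest relative of ZIP6, and is known to be repressed through MTF1 when metal is plentiful. Its columns had 43.6 and 45.1 CPM in young TCR, 30.2 and 31.8 CPM in young TRM and 36.1 and 37.2 CPM in aged TRM. The groups did not overlap, with young TRM lowest and aged TRM in between. Slc39a10 was 1.43-fold lower with the cytokines (1.32 to 1.54) and 1.18-fold higher with age (1.09 to 1.28), and was not called. Slc39a10 and the metallothioneins were all lowest in young TRM, by different amounts.

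Per transcript length, Mt1 led in every group. In TPM the order in young TCR was Mt1 (196), Mt2 (111), Slc39a6 (36.7), Slc39a10 (16.7), Mtf1 (7.83, 7.82 in its columns) and Slc30a1 (3.89). Aged TRM had the same order, from 225 TPM for Mt1 and 149.5 TPM for Mt2 down to 3.94 TPM for Slc30a1. In young TRM Slc39a6 (29.7 TPM) stood between Mt1 (38.7 TPM) and Mt2 (19.5 TPM). No neighbours in these orders had overlapping columns. Among all genes with reads, the TPM of Mt1 lay at percentile 95 in young TCR, 73.1 in young TRM and 95.8 in aged TRM, and that of Mt2 at 90.5, 59.1 and 92.9.

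Of the wider families, only the metallothioneins and Slc30a4 held called genes. Over all genes tested 3.6% fell and 4.18% rose with the cytokines, and 2.25% rose and 1.15% fell with age. Among 10 ZnT genes 6 were tested, with a median log2 ratio of 0.01 with the cytokines and 0.05 with age, next to 0.02 and -0.01 over all genes tested. Slc30a4, which encodes ZnT4, an exporter of intracellular vesicles, was the 1 called ZnT gene. It had 43.1 and 44.6 CPM in young TCR, 101.6 and 104.7 CPM in young TRM and 99.3 and 101.5 CPM in aged TRM. Both TRM samples were high, with young TRM just above aged TRM and no overlap of columns, and young TCR was low. Slc30a4 rose 2.36-fold with the cytokines (2.23 to 2.50) and differed by 0.972-fold with age (0.929 to 1.02). The ZnT genes with the highest TPM were Slc30a9 (54.8, 55.8 and 62.9 TPM in young TCR, young TRM and aged TRM) and Slc30a5 (41.7, 41.2 and 43.5 TPM), the latter a transporter of the secretory pathway.

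**Figure D3:**
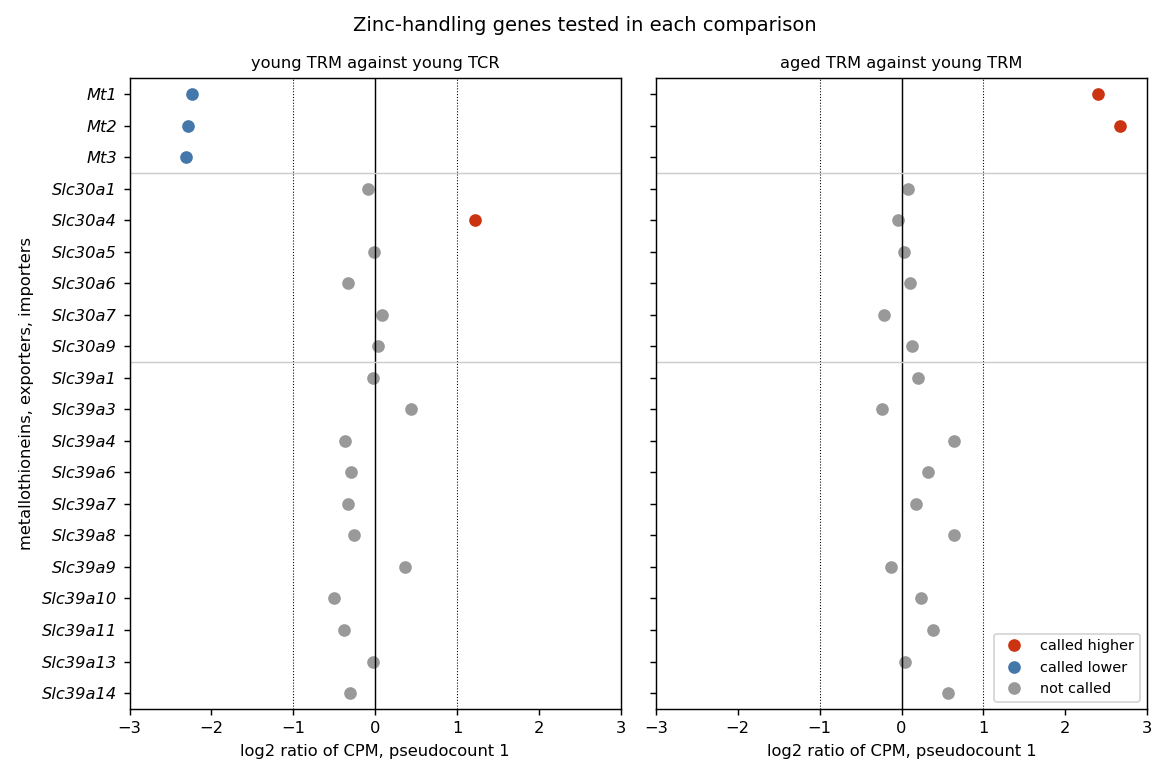
Log2 ratio of CPM (pseudocount 1) for every tested metallothionein, ZnT and ZIP gene in each comparison; dotted lines mark 2-fold and colour marks the call. Mt1, Mt2 and Mt3 lie left and Slc30a4 right of the 2-fold lines with the cytokines, Mt1 and Mt2 right with age, and every ZIP gene inside them.

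Of 14 ZIP genes on the list 13 were found and 11 passed the minimum of 1 CPM and 0 were called in either comparison. Over all genes tested 3.6% fell and 4.18% rose with the cytokines, and 2.25% rose and 1.15% fell with age, so 0 of 11 is near these shares. The ZIP median log2 ratio was -0.29 with the cytokines, with 9 of 11 below 0, and 0.23 with age, with 9 of 11 above 0. The gene at the median was Slc39a6 with the cytokines and Slc39a10 with age. Both were chosen with their values known and count among the 9 in each comparison, so these figures partly describe the choice. The medians over all genes tested were 0.02 and -0.01. The ZIP genes with the largest ratios with age were Slc39a4, an importer best known from the gut (0.64, from 17.7 to 28.3 CPM), Slc39a8, which encodes the lysosomal importer ZIP8 of T cells (0.64, from 8.09 to 13.2 CPM), and Slc39a14, an importer of zinc and iron (0.57, from 35.3 to 52.8 CPM), here picked after their values were seen. By TPM the leading ZIP genes were Slc39a7, which releases zinc from the endoplasmic reticulum (106, 83.6 and 98.0 TPM), and Slc39a1, at the plasma membrane (69.3, 67.5 and 80.4 TPM).

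The other 6 tested genes known to respond to MTF1 were not called in either comparison, which is near the shares over all genes given below. Of 8 tested MTF1 targets, Mt1 and Mt2 themselves were the 2 that fell with the cytokines and the 2 that rose with age. The list medians were -0.06 and 0.02. The list takes in Mt1, Mt2, Slc30a1 and Slc39a10, all chosen with their values known. It also pools Slc39a10, known to be repressed through MTF1, with the metallothioneins that MTF1 switches on. Of all genes tested, 3.6% fell and 4.18% rose with the cytokines, and 2.25% rose and 1.15% fell with age. Selenow, which encodes a small selenoprotein, had 57.7, 72.7 and 45.7 CPM in young TCR, young TRM and aged TRM, and Ndrg1, a stress gene, had 96.1, 119 and 82.2 CPM, so both were highest in young TRM. Csrp1, which encodes a zinc-binding LIM protein, stayed within 154 to 158 CPM. Pgf and Slc40a1 were below 1 CPM in every group and were not tested.

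**Figure D4:**
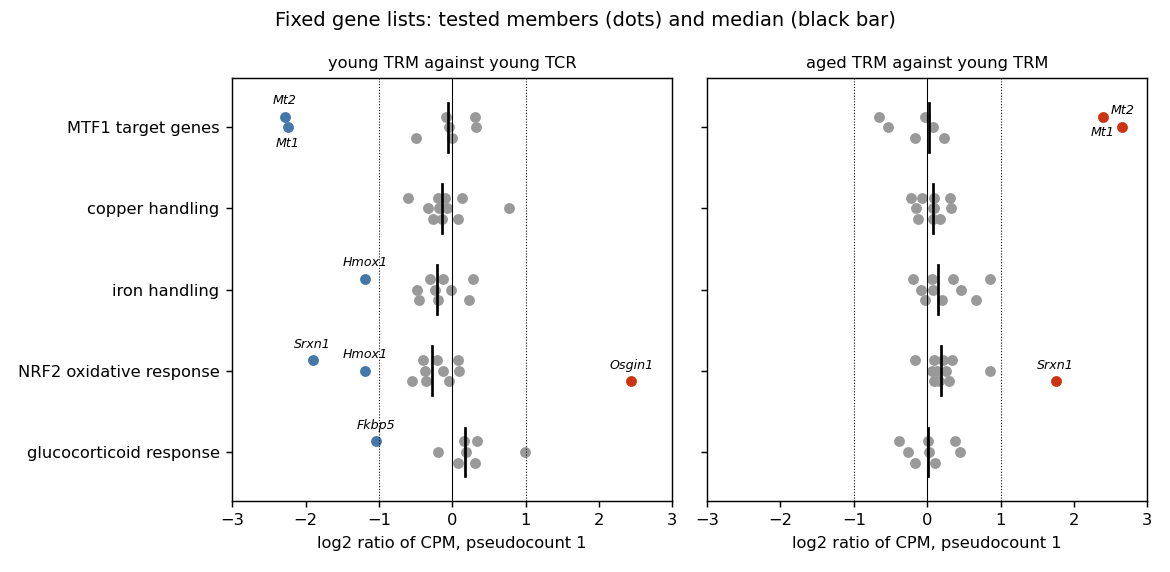
Log2 ratios of CPM (pseudocount 1) of the tested genes of 5 fixed lists in both comparisons; black bars are list medians, dotted lines mark 2-fold and called genes are named. The medians lie between -0.28 and 0.19, with Mt1, Mt2, Srxn1, Hmox1, Fkbp5 and Osgin1 past the 2-fold lines.

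Lists for other metals and for stresses that act on metallothionein genes were read against the shares over all genes tested. With the cytokines 3.6% of those fell and 4.18% rose, and with age 2.25% rose and 1.15% fell. Copper handling genes had 0 of 11 called in either comparison, with medians of -0.14 and 0.08. Of 10 iron handling genes 1 fell with the cytokines, Hmox1, which encodes the haem-degrading enzyme heme oxygenase 1, and 0 were called with age (medians -0.21 and 0.14). Hmox1 had 15.6 and 16.4 CPM in young TCR, 7.18 and 5.95 CPM in young TRM and 11.6 and 13.4 CPM in aged TRM. It was 2.47-fold lower with the cytokines (2.12 to 2.88), a call that ended with a pseudocount of 5 (-0.87), and 1.93-fold higher with age (1.64 to 2.26).

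The 12 genes of the NRF2 response to oxidants had medians of -0.28 and 0.19, with 2 fallen (Srxn1 and Hmox1, which is in the iron list too) and 1 risen (Osgin1) with the cytokines and 1 risen (Srxn1) with age. Srxn1, which encodes sulfiredoxin, an enzyme that repairs oxidised peroxiredoxins, was, like the metallothioneins, lowest in young TRM. Its columns had 11.5 and 11.9 CPM in young TCR, 2.10 and 2.62 CPM in young TRM and 8.58 and 12.2 CPM in aged TRM. The aged columns were wide apart and took in the range of young TCR, and young TRM was low. Srxn1 fell 4.89-fold with the cytokines (3.87 to 6.25) and rose 4.36-fold with age (3.45 to 5.58). Osgin1, an oxidative stress growth inhibitor, rose from 1.11 to 10.4 CPM with the cytokines and had 11.02 CPM in aged TRM. Nqo1, a classic NRF2 target, was at 1.60, 1.02 and 1.35 CPM.

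Glucocorticoid response genes, included because hormone of this kind can induce metallothioneins, had medians of 0.17 and 0.02 over 8 tested. Fkbp5, which encodes a co-chaperone of the glucocorticoid receptor, fell from 227 to 110 CPM with the cytokines and had 149.8 CPM in aged TRM. Tsc22d3, another target of that receptor, had 41.8, 52.9 and 43.9 CPM.

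Genes with profiles most like that of Mt1 were sought by the distance between pairs of log2 ratios, over 3 samples and 9016 genes of at least 10 CPM. Mt2 was nearer to Mt1 than any of these (distance 0.27). Next came Csf2, which encodes the cytokine GM-CSF (22.4, 3.29 and 18.6 CPM in young TCR, young TRM and aged TRM; distance 0.29), and Nkain1, which encodes a partner of the sodium pump (13.9, 1.70 and 11.4 CPM; 0.30). Ccdc184 (0.52), Lilr4b, an immunoglobulin-like receptor gene with a close relative beside it that may share reads (0.61), and Cdkn1a, which encodes the cell cycle inhibitor p21 (157, 47.2 and 192 CPM; 0.66), followed. The 5 genes nearest to Slc39a10 were Slc25a32, Bckdhb, Selenos, Inka2 and Wdr77, all within 0.02 of it. With 3 samples a profile is only 2 ratios, and many genes of modest change lie close together.

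Most markers of B cells moved in the same directions as Mt1 and Mt2. All 6 had log2 ratios below 0 with the cytokines, and 5 had ratios above 0 with age. The exception was Cd79b (15.5, 12.9 and 11.7 CPM in young TCR, young TRM and aged TRM), which was not called in either comparison. The 6 B cell genes summed to 42.5 and 49.8 CPM in the columns of young TCR, 15.8 and 17.8 CPM in young TRM and 24.3 and 21.6 CPM in aged TRM. Unlike Mt1 and Mt2, their sum in aged TRM stayed below that in young TCR. With the cytokines 5 of the 6 fell and with age 3 rose, and none was at 0. The shares over all genes tested apply to every marker list here. They were 3.6% fallen and 4.18% risen with the cytokines, and 2.25% risen and 1.15% fallen with age. Red cell and platelet genes, with 4 markers and none at 0, also had their lowest sum in young TRM (9.34 and 10.3, 4.89 and 3.64, and 8.39 and 11.04 CPM), with 2 fallen and 1 risen with the cytokines and 1 risen with age. The platelet genes Ppbp (6.22, 0.482 and 1.21 CPM in young TCR, young TRM and aged TRM) and Pf4 (2.79, 0.653 and 1.57 CPM) were lowest in young TRM. The red cell genes Hbb-bt (0.740, 2.50 and 6.15 CPM) and Hba-a1 (0.0987, 0.568 and 0.787 CPM) were lowest in young TCR and highest in aged TRM. The part of B cells, red cells and platelets in the metallothionein levels was not tested. The 5 NK and innate lymphoid genes all rose with the cytokines (30.4 to 33.8 CPM in young TCR, 90.8 to 90.9 in young TRM and 114 to 126 in aged TRM, none at 0). Most of this sum was Kit (29.6, 78.4 and 110.5 CPM), and the other 4 genes had log2 ratios below 0 with age, with 0 of the 5 called. The 4 CD4 T cell genes summed to 30.5 to 31.4, 53.8 to 54.6 and 30.1 to 30.2 CPM, with 1 risen and 1 fallen with the cytokines and 1 fallen with age. The gene that rose and then fell was Foxp3, the regulatory T cell factor (1.95, 33.6 and 3.71 CPM), while Cd4 had 10.5, 12.4 and 11.6 CPM. Zbtb7b went the other way, fell with the cytokines and was lowest in young TRM (18.1, 8.03 and 14.3 CPM). That call ended with a pseudocount of 5 (-0.83) and with TPM. Cd40lg had at most 0.541 CPM in any group. The 7 myeloid genes summed to 17.1 to 17.4, 36.2 to 38.1 and 20.9 to 22.6 CPM, and 1 rose with the cytokines, Mpeg1 (4.22, 28.7 and 15.4 CPM). Cd68 had 9.23, 5.25 and 4.45 CPM, Itgam 2.59, 2.24 and 0.664 CPM and Lyz2 0.913, 0.596 and 0.861 CPM. Csf1r, Adgre1 and C1qa had at most 0.227 CPM in any group, Adgre1 at 0 in young TRM. The 5 stromal and endothelial genes had sums of 78.4 to 79.3, 70.1 to 73.7 and 55.1 to 56.1 CPM, nearly all from Pecam1, with 0 called and Cdh5 at 0 in young TCR. In such bulk samples fewer cells of a type and less RNA per cell cannot be told apart.

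Some reads of these genes could belong to overlapping transcripts. Of the 50-base stretches in Mt2 transcripts of GENCODE M21, 45.8% also occur in Gm45774, a gene on the opposite strand, which was not analysed here. The shares were 7.55% for Mtf1 and 8.01% for Slc30a1, likewise with genes on the opposite strand, and 0.447% for Slc39a10. For Mt1, Mt3 and Slc39a6 the share was 0, so Mt1 and Mt2 have no such stretch in common. The sources used here do not say whether reads were counted by strand.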

How the data were processed

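RNA of 3 mouse CD8+ T cell cultures was sequenced, per the labels' protocols, on a HiSeq instrument from total RNA, and the submitters' processing notes name Bowtie and GRCm38 (mm10). Which program counted reads is not stated there. The deposited table gives estimated counts, not always whole, and TPM made by the authors. A further 24 value columns were not used. The members and gene lists were chosen with earlier results of these data known.

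Counts were rounded and the 2 columns of each sample summed. Libraries were scaled by TMM (edgeR 4.0.16, R 4.3.3), with factors of 1.02, 0.978 and 1.01. Python 3.11.15 (scipy 1.17.1, numpy 2.4.6, pandas 2.3.3) gave log2 ratios of CPM, to which a pseudocount of 1 was added, for genes of at least 1 CPM in 1 of the 2 libraries, with 95% Clopper-Pearson intervals. The calling rule was tried on simulated counts with little noise beyond counting error, which cannot speak for variation between mice or cultures. Symbols turned into dates (23) were restored from gene IDs, and 17071 IDs were found in the RefSeq table of GRCm38.p6. Named genes were the 6 members, called genes of the lists, the 2 ZnT and 2 ZIP genes of highest TPM, and the 5 nearest profiles to Mt1 and to Slc39a10, leaving out predicted genes and pseudogenes. Genes near Mt1, Mt4, the 3 ZIP genes with the largest ratios with age, Selenow, Ndrg1, Csrp1, Pgf, Slc40a1, Nqo1, Tsc22d3 and the uncalled markers were named after their values were seen. Alternatives were other scalings (totals, DESeq2 1.42.0 size factors), a pseudocount of 5, TPM, other filters and each column alone.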

Additional observations from a re-analysis of the deposited data

How the results depend on the processing

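The fall of Mt1 and Mt2 with the cytokines and their rise with age kept direction and call under all 6 alternatives run for them, with log2 ratios of Mt1 from -2.35 to -1.90 and from 2.04 to 2.56, and of Mt2 from -2.45 to -1.75 and from 2.08 to 2.88. Slc30a1 with the cytokines changed sign with column 1 alone (0.092), the one such change among the 72 values of the 6 genes. Changes of sign among uncalled genes with the cytokines were those of Slc30a9 (-0.018 with totals only and with column 1 alone), Slc30a7 (-0.11 with TPM), Slc30a5 (0.0048 with column 1) and Slc39a13 (0.0056 with column 2), and with age those of Slc30a4 (0.00037 with totals only, 0.0092 with TPM), Slc30a7 (0.068 with TPM), Slc39a13 (-0.015 with column 2) and Cd22 (-0.033 with column 2). A pseudocount of 5 left 296 higher and 190 lower genes with the cytokines and 87 and 62 with age, and a minimum of 10 CPM left 234 lower with the cytokines and 123 higher with age, against 484 and 417, and 260 and 133. The calls of Mt3, Hmox1 and several markers of other cells ended with that pseudocount. No paired analysis was possible because each group is 1 sample. Depth limits Mt3, with 1 read in young TRM, far more than Mt1, with 346.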
